A study of Mus musculus with 6 samples.

Results

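The genes described here encode the enzymes that add acetyl groups to histones, the enzymes that remove them, and the corepressors and readers that work with both, in 2 stages of red cell formation in the mouse fetal liver. A list of 37 genes was set against the probe sets of the array, and 36 of them had a probe set annotated to their symbol alone, of 18193 genes with such a probe set in all. Ncor1 had none, so no expression value is given for it. The brightest probe set by mean over all arrays stood for each gene. Hdac9, a class IIa deacetylase, was too dim to be tested, so tests cover 35 genes. The study sorted 2 subsets of red cell precursors, S3 (more mature) and S1 (less mature), from whole dissociated livers of Balb/C embryos by CD71, Ter119 and a cocktail of lineage antibodies, and hybridised each of 3 samples per subset to an Affymetrix mouse expression array. No treatment or mutation was involved, and per the series' design text each subset was sorted on 3 separate days. The stage label gives embryonic day 13.5 for S3 and 12.5 for S1, while the source label gives 13.5 for all 6 arrays. If the stage label is right, embryo age and subset cannot be told apart in any value below. Each sample is a pool of sorted cells, so a change within cells and a change in the mix of cells cannot be told apart either, nor can fewer cells of a type and less RNA per cell.

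Acetyl groups on histone tails loosen chromatin and are read by bromodomain proteins such as those of the BET family, and they turn over quickly between acetylases and deacetylases. Deacetylases of class I work mostly inside corepressor complexes (NuRD, SIN3, CoREST and NCoR/SMRT), and class IIa enzymes shuttle between cytoplasm and nucleus. Sirtuins use NAD as a cosubstrate. In red cell precursors, the factor Gata1 is itself acetylated and recruits both coactivators and corepressors, and chromatin condenses before the nucleus is expelled.

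Values are log2 signals that the authors scaled to 3 control transcripts, and 3 arrays a subset set the precision. Where 3 values are given for a subset, they are replicates 1, 2 and 3 in that order. The median array signal lay between 1.83 and 2.94. Background, set at the 95th percentile of 27 bacterial control probe sets, lay between 1.01 and 1.74. The arrays differed in how far signal reached toward the 5′ end of transcripts: the actin 5′ minus 3′ control difference was -0.45, -2.20 and -0.56 in S3 replicates 1, 2 and 3, against -2.08, -2.59 and -0.47 in S1 replicates 1, 2 and 3. Arrays below -1.5 are named short (S3 replicate 2, S1 replicates 1 and 2) and the others long (S3 replicates 1 and 3, S1 replicate 3). All 5 erythroid markers with a probe set were above background on every array (log2 sum 12.38 to 12.73 in S3, 11.08 to 11.56 in S1). The log2 change was 4.88 for the heme synthesis enzyme Alas2 and 2.45 for Slc4a1 (limma adjusted p = 0.00279 and 0.00315). Epor (0.90), Klf1 (0.44) and Gata1 (-0.12) overlapped between the subsets. Elane and Ctsg (granulocytes) and Adgre1 (macrophages) were above background on no array. Of the 6 macrophage markers, 3 were above it on all S3 arrays and 3 on all S1 arrays. The summed signal of 5 megakaryocyte markers was higher on every S3 array (log2 8.35 to 8.44 in S3, 6.26 to 7.44 in S1), and that of 4 granulocyte markers lower (2.19 to 3.93 in S3, 4.05 to 4.65 in S1). Of the megakaryocyte markers, Pf4, Gp9 and Ppbp were higher without overlap, while Itga2b (log2 change -0.31) and Gp1bb (0.32) overlapped. No megakaryocyte marker had a limma adjusted p under 0.05 over the 6 arrays on the deposited scale. The granulocyte difference was that of Prtn3 (0.85 in S3, 3.79 in S1), while Mpo overlapped. Sums overlapped for 5 hepatocyte markers (7.64 to 9.62 in S3, 7.79 to 8.14 in S1) and 6 macrophage markers (5.02 to 6.43 in S3, 4.67 to 6.83 in S1). Of the hepatocyte markers, Ttr was higher without overlap (log2 change 1.22, limma adjusted p = 0.0768) and 4 overlapped. With median centring, Alb and Ttr were called higher, and so were Pf4, Gp9 and Ppbp. The part of these other cell types in the results below was not tested.

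Over the 6 arrays on the deposited scale, the deacetylase Hdac2, the acetylase Kat2a and the reader Brd3 were called lower in S3. No gene of the set was called higher in that fit. A gene was called where the limma p, adjusted over all 11959 genes tested, was under 0.05, and 32 of the 35 were not. At an unadjusted p under 0.05, 8 were lower and 2 higher, where 24.2% of all genes were lower and 5.33% higher at that threshold. The 3 called are 8.57% of the 35, where 12.8% of all tested genes were lower in S3 and 2.53% higher, so the set held no larger share of calls than the array as a whole. The median log2 change was -0.22 for the 35 genes and -0.33 for all genes. Every S3 array read below every S1 array for 11 of the 35 (31.4%), against 29.5% of all genes, and above for none, against 5.81% of all genes. The 11 were Hdac1, Hdac2, Hdac4, Hdac8, Hdac10, Sirt5, Sirt6, Kat2a, Kat6b, Kat7 and Brd3. Without S1 replicate 1 or without S3 replicate 1 none of the 35 passed the threshold (adjusted p for Hdac2, Kat2a and Brd3 0.0773, 0.0730 and 0.0753 without the S1 array, and 0.0563, 0.0676 and 0.0510 without the S3 array). With each array centred on its median, 2 of the 35 were lower (Kat2a and Hdac8) and 2 higher (Kat2b and Hdac11).

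**Figure D1:**
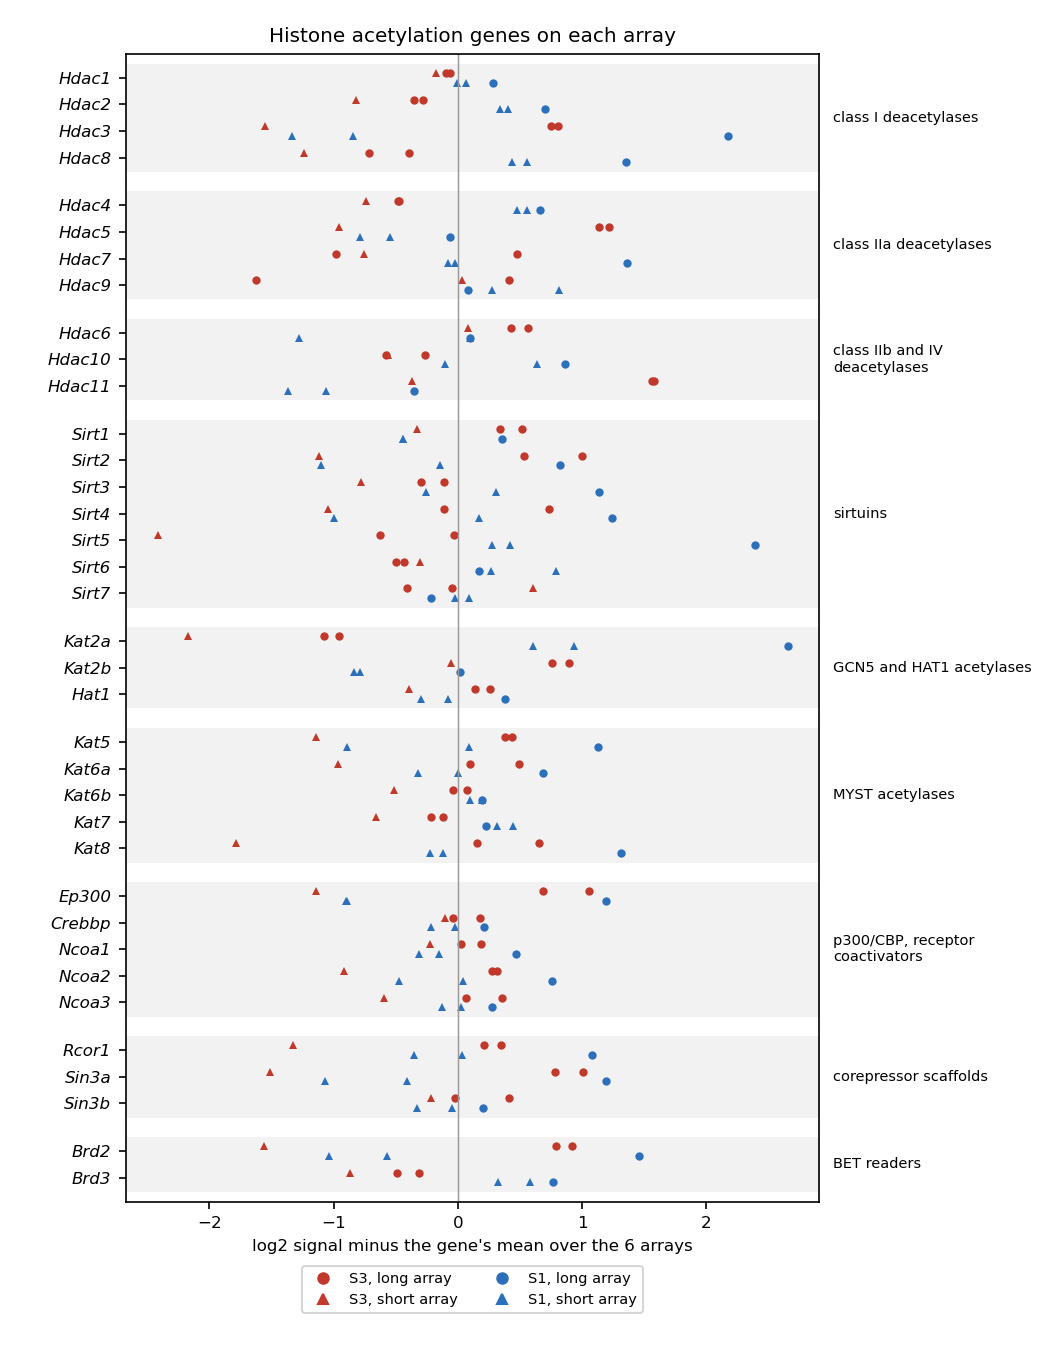
Log2 signal of each array minus the gene's mean over the 6 arrays (x axis) for the 36 genes with a probe set, grouped by role (y axis); red marks are S3 and blue marks S1, circles long and triangles short arrays. For Hdac2, Hdac4, Hdac8, Kat2a and Brd3 all red marks lie left of all blue marks, while for Hdac3, Ep300, Sin3a and Brd2 the circles lie right of the triangles in both colours.

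Among the class I deacetylases, Hdac2 fell and the other 3 were not called. Hdac2, a catalytic subunit of NuRD, SIN3 and CoREST complexes, read 8.65, 8.18 and 8.72 in S3, against 9.41, 9.34 and 9.70 in S1. The lowest S1 array lay above the highest S3 array (log2 change -0.97 ± 0.21 SE, adjusted p = 0.0225, limma). Leaving out any 1 array other than S3 replicate 2 took it over the threshold (adjusted p 0.0515 to 0.0773). Hdac1, its paralog and partner in the same complexes, read 8.61, 8.53 and 8.65 in S3, against 8.70, 8.77 and 8.99 in S1. Its subsets did not overlap either, but the gap was small and was not called (log2 change -0.23, 95% confidence interval -0.64 to 0.19). Hdac8, a class I enzyme outside those complexes that deacetylates the cohesin subunit Smc3, read 4.82, 4.29 and 5.14 in S3, against 6.09, 5.97 and 6.89 in S1. All S3 arrays lay below all S1 arrays, and the value just missed the threshold (log2 change -1.57 ± 0.43 SE, adjusted p = 0.0506). Hdac3, the enzyme of NCoR/SMRT complexes, read 6.70, 4.35 and 6.64 in S3, against 4.56, 5.05 and 8.07 in S1. The short arrays of both subsets were low and the long ones high, and the interval over all 6 arrays was wide (log2 change 0.01, 95% confidence interval -2.42 to 2.44).

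No class IIa deacetylase was called by its brightest probe set. Hdac4, a signal-dependent corepressor of Mef2 factors, read 5.84, 5.58 and 5.83 in S3, against 6.87, 6.79 and 6.97 in S1. The spread within each subset was small and the gap of 2.19-fold just missed the threshold (log2 change -1.13 ± 0.32 SE, adjusted p = 0.0519). Hdac5, a close relative of Hdac4, lay at 2.89 to 5.06 in S3 and 3.05 to 3.78 in S1 and was not called (log2 change 0.93, 95% confidence interval -0.61 to 2.47). Hdac9 averaged -0.01 ± 1.08 in S3 and 0.78 ± 0.38 in S1 (mean log2 signal ± SD, n = 3 arrays each), above background on no S3 array and on 1 S1 array.

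The 2 probe sets of Hdac7, a class IIa enzyme known from thymocytes and endothelium, disagreed in size. The brightest gave 2.93 to 4.39 in S3 and 3.84 to 5.28 in S1 (log2 change -0.84 ± 0.61 SE, adjusted p = 0.430). The dimmer one, singled out after its values were seen, read -1.65, 0.07 and -0.12 in S3, against 6.34, 5.98 and 6.89 in S1. It was above background on all S1 arrays and on no S3 array. Signal was therefore at least 35.7-fold lower in S3, taking background as the S3 level. No test is given for this probe set, since it cleared the filter on dim probe sets through its S1 level alone. Both probe sets carry the same accession in the platform annotation, which does not say where in the transcript each lies.

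Of the class IIb and IV enzymes, Hdac11 and Hdac6 had positive and Hdac10 negative log2 changes, none of them called. Hdac11, the sole class IV enzyme, read 6.21, 4.28 and 6.22 in S3, against 3.28, 3.59 and 4.29 in S1. Both long S3 arrays were far above all S1 arrays, while the short S3 array lay level with the long S1 array (log2 change 1.85 ± 0.63 SE, adjusted p = 0.0943). Its second probe set had the same sign (log2 change 1.38 ± 0.60 SE, adjusted p = 0.224 over probe sets). Hdac6, the cytoplasmic tubulin deacetylase, lay at 6.12 to 6.60 in S3 and 4.76 to 6.14 in S1 (log2 change 0.72, 95% confidence interval -0.39 to 1.83). Hdac10, a class IIb enzyme that acts on polyamines, lay at 4.25 to 4.57 in S3 and 4.73 to 5.69 in S1, without overlap (log2 change -0.93 ± 0.42 SE, adjusted p = 0.189).

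None of the 7 sirtuins was called. Among them Sirt5, the mitochondrial enzyme that removes succinyl and malonyl groups, had the most negative log2 change. It read 3.19, 0.81 and 2.60 in S3, against 3.50, 3.64 and 5.61 in S1. The highest S3 array lay below the lowest S1 array, yet the arrays spread widely (log2 change -2.05 ± 0.82 SE, adjusted p = 0.145). S3 replicate 2 was under its background, and the change was -1.36 without that array and -1.37 without S1 replicate 3. Its other tested probe set had the same sign (log2 change -3.91 ± 1.72 SE, adjusted p = 0.236 over probe sets), with S3 replicate 2 again under background at -3.23. Sirt6, a chromatin-bound deacetylase, read 7.71, 7.85 and 7.65 in S3, against 8.94, 8.41 and 8.32 in S1. Here the arrays were tight, the subsets did not overlap, and the value missed the threshold (log2 change -0.82 ± 0.25 SE, adjusted p = 0.0671). Sirt1, the nuclear sirtuin best known for acting on p53, lay at 8.12 to 8.97 in S3 and 8.01 to 8.81 in S1 (log2 change 0.35, 95% confidence interval -0.41 to 1.12). Sirt3, the main mitochondrial deacetylase, lay at 4.76 to 5.43 in S3 and 5.28 to 6.68 in S1 (log2 change -0.79, 95% confidence interval -1.89 to 0.31), and Sirt4, also mitochondrial, at 2.86 to 4.64 in S3 and 2.91 to 5.14 in S1 (log2 change -0.28, 95% confidence interval -1.94 to 1.38). Sirt2, mostly cytoplasmic, lay at 5.47 to 7.59 in S3 and 5.49 to 7.42 in S1 (log2 change 0.28, 95% confidence interval -1.34 to 1.89). Sirt7, a nucleolar sirtuin, lay at 6.45 to 7.47 in S3 and 6.65 to 6.95 in S1 (log2 change 0.10, 95% confidence interval -0.75 to 0.95).

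The paralogous acetylases Kat2a and Kat2b had log2 changes of opposite sign. Kat2a (GCN5), the catalytic subunit of the SAGA and ATAC coactivators, read 4.43, 3.34 and 4.55 in S3, against 6.44, 6.11 and 8.16 in S1. Every S3 array lay more than 1 log2 unit below every S1 array, a 6.95-fold fall (log2 change -2.80 ± 0.64 SE, adjusted p = 0.0269, limma). Without S3 replicate 1 or 3 or S1 replicate 1 or 2 it was not called (adjusted p 0.0531 to 0.0730). Without S1 replicate 3, the highest array, the log2 change was -2.17. Its dimmer probe sets had smaller negative changes (-1.95 and -0.64, adjusted p = 0.448 and 0.697 over probe sets), and the mean of its probe sets was not called (-1.80, adjusted p = 0.231). Kat2b (PCAF), which can take the place of Kat2a in these complexes, read 9.43, 8.61 and 9.56 in S3, against 7.88, 7.83 and 8.68 in S1. The short S3 array lay just under the long S1 array, and the difference was not called over the 6 arrays (log2 change 1.07 ± 0.34 SE, adjusted p = 0.0783). Within the short arrays and within the long arrays, every S3 array lay above every S1 array. The change was 0.78 with array class as a block (adjusted p = 7.13e-04) and 1.40 with median centring (adjusted p = 0.00958). Its 2 dimmer probe sets gave 0.61 and 0.35 (adjusted p = 0.693 and 0.867 over probe sets). Hat1, which acetylates newly made histone H4 before it is deposited, lay at 9.39 to 10.04 in S3 and 9.49 to 10.16 in S1 (log2 change 0.00, 95% confidence interval -0.54 to 0.54).

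**Figure D2:**
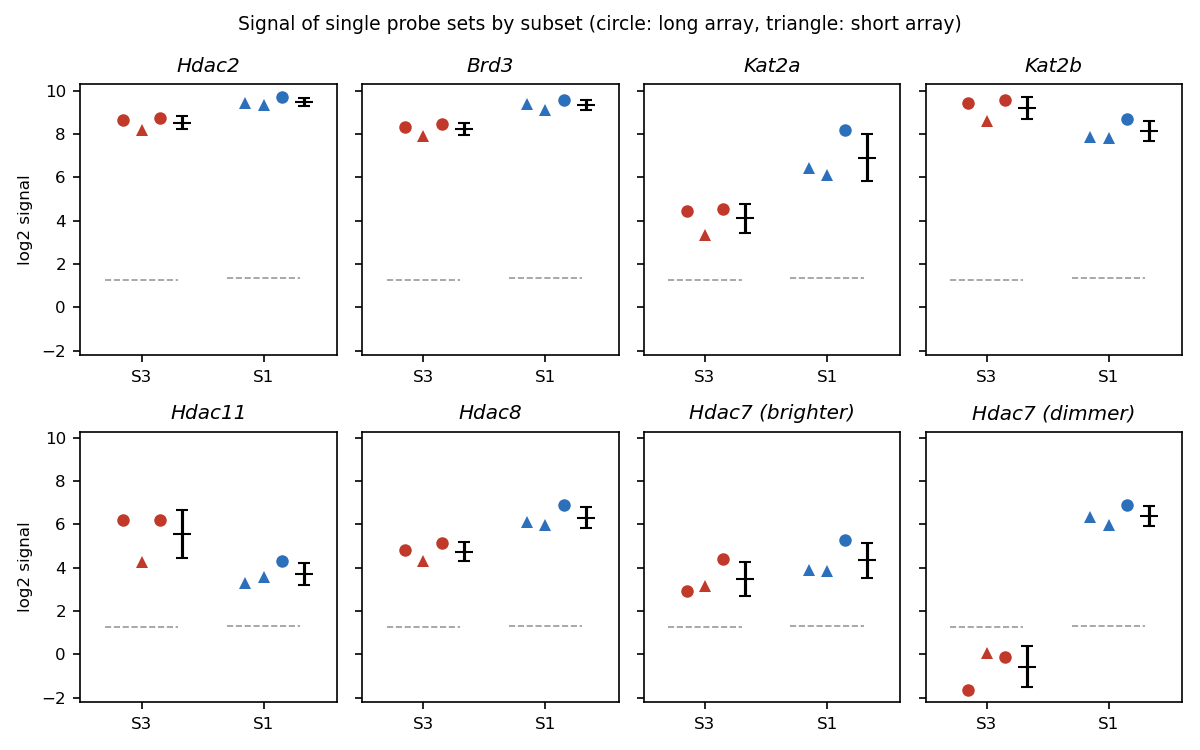
Log2 signal (y axis) of 8 single probe sets on the 3 S3 arrays (red, left) and the 3 S1 arrays (blue, right) of each panel; circles are long and triangles short arrays, black bars the mean ± SD, and dashed lines the mean background of each subset. Hdac2, Brd3, Kat2a, Hdac8 and the dimmer Hdac7 probe set show no overlap, and that Hdac7 probe set falls under background in S3.

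The promoters of the 3 genes that fell and of Kat2b are shown because the profiles were made for work on loss of DNA methylation during red cell formation, for which CpG sites are the substrate. Each is the 250 bases before the gene's start from RefSeq (GRCm38.p6), read 5′ to 3′ on the gene's strand, with each CpG in capitals.
Hdac2 (chr10:36974294-36974543, plus strand): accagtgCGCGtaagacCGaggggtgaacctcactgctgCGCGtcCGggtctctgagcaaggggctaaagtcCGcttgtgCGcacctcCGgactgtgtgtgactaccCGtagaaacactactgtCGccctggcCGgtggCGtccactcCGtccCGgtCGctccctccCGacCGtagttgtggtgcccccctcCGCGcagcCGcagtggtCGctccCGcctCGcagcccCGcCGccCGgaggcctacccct
Kat2a (chr11:100712468-100712717, minus strand): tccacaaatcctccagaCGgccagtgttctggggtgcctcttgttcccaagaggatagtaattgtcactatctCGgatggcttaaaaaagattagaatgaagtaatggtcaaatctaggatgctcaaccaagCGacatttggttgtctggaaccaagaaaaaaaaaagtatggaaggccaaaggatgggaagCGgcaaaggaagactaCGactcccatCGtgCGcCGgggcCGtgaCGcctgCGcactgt
Brd3 (chr2:27475399-27475648, minus strand): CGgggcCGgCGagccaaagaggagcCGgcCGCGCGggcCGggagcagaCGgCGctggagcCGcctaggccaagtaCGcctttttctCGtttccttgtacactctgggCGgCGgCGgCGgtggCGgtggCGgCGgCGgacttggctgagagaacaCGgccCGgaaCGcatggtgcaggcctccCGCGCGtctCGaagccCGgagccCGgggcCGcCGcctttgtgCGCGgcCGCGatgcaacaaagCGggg
Kat2b (chr17:53566721-53566970, plus strand): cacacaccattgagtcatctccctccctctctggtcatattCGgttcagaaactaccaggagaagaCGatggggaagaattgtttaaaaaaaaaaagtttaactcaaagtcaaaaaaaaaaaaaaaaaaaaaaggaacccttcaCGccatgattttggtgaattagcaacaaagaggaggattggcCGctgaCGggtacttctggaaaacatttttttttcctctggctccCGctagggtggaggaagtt
The Brd3 window held 37 CpGs and that of Hdac2 27, while Kat2a had 11, mostly near the start, and Kat2b 6. Windows were found for 31 of the 37 genes, and 22 of these (71.0%) were CpG rich, taken as an observed over expected CpG ratio of at least 0.6 and a GC content of at least 50%, against 31.4% of 27025 genes of all kinds. Crebbp had the most CpGs (44) and Hdac9, the gene too dim to test, 0. The GATA motif AGATAA, searched on both strands, was in 1 of the 31 windows (3.23%, in Hdac7), against 10.2% of all genes, and the KLF-type motif CCNCNCCC in 17 (54.8%), against 45.6% of all genes. Neither motif was in the 4 windows printed. These matches describe letters only, and no binding or methylation was measured on these arrays.

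None of the 5 MYST acetylases was called, and the brightest probe sets of all 5 had negative log2 changes on the deposited scale. With median centring, Kat5, Kat6a and Kat6b were slightly positive. Dimmer tested probe sets were positive for Kat6a (0.30), Kat6b (0.58) and Kat7 (0.51). Those of Kat5 (-0.30) and another of Kat7 (-0.09) were negative, and none of them was called. Kat7 (HBO1), an acetylase tied to replication origins, read 8.53, 8.09 and 8.62 in S3, against 9.19, 9.06 and 8.97 in S1. The subsets did not overlap and were each tight, and the value missed the threshold (log2 change -0.66 ± 0.21 SE, adjusted p = 0.0750). Kat6b (MORF) also had no overlap, with 5.63 to 6.22 in S3 and 6.24 to 6.34 in S1, over a gap within its error (log2 change -0.32, 95% confidence interval -1.12 to 0.48). Kat8 (MOF), which acetylates histone H4, read 6.77, 4.33 and 6.27 in S3, against 5.89, 6.0 and 7.43 in S1. The short S3 array alone was far below the rest (log2 change -0.65, 95% confidence interval -2.35 to 1.05). Kat5 (TIP60), the acetylase of the NuA4 complex, lay at 6.0 to 7.58 in S3 and 6.26 to 8.28 in S1 (log2 change -0.22, 95% confidence interval -1.70 to 1.26). Kat6a (MOZ), needed for blood stem cells, lay at 7.13 to 8.59 in S3 and 7.78 to 8.79 in S1 (log2 change -0.25, 95% confidence interval -1.27 to 0.78).

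Of the large coactivators none was called, and the brightest probe set of Crebbp varied little between arrays. Crebbp (CBP), which acetylates histones at enhancers and Gata1 itself, read 9.63, 9.56 and 9.84 in S3, against 9.64, 9.44 and 9.88 in S1. The subsets overlapped over a narrow range, and the interval leaves room for changes of either sign (log2 change 0.02, 95% confidence interval -0.34 to 0.39). Its dimmer probe sets gave 0.00, 0.40 and 2.10, none called, and the last ran from 2.57 to 6.05 in S3 and 0.59 to 5.95 in S1. Ep300 (p300), its paralog, read 8.38, 6.56 and 8.76 in S3, against 6.80, 6.81 and 8.89 in S1. Its long arrays were close together in both subsets and its short arrays were too, at a lower level (log2 change 0.40, 95% confidence interval -1.35 to 2.16). The nuclear receptor coactivators Ncoa1 (log2 change 0.00, 95% confidence interval -0.90 to 0.90), Ncoa2 (log2 change -0.22, 95% confidence interval -1.26 to 0.83) and Ncoa3 (log2 change -0.12, 95% confidence interval -0.81 to 0.58) were not called either. Ncoa1 lay at 5.36 to 5.76 in S3 and 5.27 to 6.05 in S1. Ncoa2 lay at 7.12 to 8.35 in S3 and 7.56 to 8.79 in S1, and Ncoa3 at 7.63 to 8.58 in S3 and 8.09 to 8.49 in S1. By the brightest probe set, the subsets overlapped for each of the 3. A dimmer probe set of Ncoa2 did not overlap (log2 change -0.91, limma adjusted p = 0.242 over probe sets). The dimmer one of Ncoa3 overlapped with a positive change (1.25, adjusted p = 0.384). The other tested ones overlapped too.

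The measured corepressor scaffolds were not called. Sin3b, a scaffold of the SIN3 deacetylase complex, lay at 8.93 to 9.56 in S3 and 8.82 to 9.35 in S1 (log2 change 0.11, 95% confidence interval -0.41 to 0.64), and its paralog Sin3a at 4.40 to 6.92 in S3 and 4.84 to 7.10 in S1 (log2 change 0.19, 95% confidence interval -1.77 to 2.14). Rcor1 (CoREST), which links Hdac1 and Hdac2 to the demethylase Kdm1a and is needed for red cell formation in mice, read 8.41, 6.88 and 8.55 in S3, against 8.23, 7.85 and 9.28 in S1. The subsets overlapped, with the short arrays lower in each (log2 change -0.51, 95% confidence interval -1.78 to 0.76). Of the BET readers, Brd3 fell and Brd2 was not called. Brd3, which binds acetylated Gata1, read 8.30, 7.91 and 8.47 in S3, against 9.37, 9.11 and 9.55 in S1. No S3 array reached the lowest S1 array, a 2.17-fold fall (log2 change -1.12 ± 0.22 SE, adjusted p = 0.0171, limma). Its 3 dimmer probe sets had changes of -1.40, -0.75 and -0.61, none of them called. Brd2, which shares Gata1 sites with Brd3, read 7.62, 5.27 and 7.75 in S3, against 5.79, 6.26 and 8.29 in S1. The short arrays were low and the long arrays high in both subsets (log2 change 0.10, 95% confidence interval -1.92 to 2.12).

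Many of these genes differed between the long and the short arrays. Subset and class were fitted together. The long arrays then read higher for 23 of the 35 genes (limma adjusted p under 0.05), against 37.5% of all genes. The long minus short difference was positive for 33 of the 35, a count for which no share over all genes was taken. It was 2.80 for Hdac3, 2.34 for Brd2, 2.17 for Sin3a, 2.06 for Sirt5 and 2.05 for Ep300. It was 0.18 for Hdac1, 0.17 for Kat7 and 0.20 for Hdac4, and -0.54 and -0.26 for Sirt7 and Sirt6. With the class held as a block, 17 of the 35 genes were lower in S3 and 2 higher. That is 48.6% lower, against 41.2% of all genes lower and 5.81% higher under the same block, where the median change of all genes was -0.54. The balance rested on the scale: with that block and median centring together, 4 were lower (Hdac8, Sirt5, Kat2a and Brd3) and 7 higher (Hdac6, Hdac11, Sirt1, Sirt7, Kat2b, Crebbp and Sin3b), against 15.3% of all genes lower and 15.8% higher. Both genes called higher under the block, Hdac11 (1.38, adjusted p = 0.00773) and Kat2b (0.78, adjusted p = 7.13e-04), were also called higher with median centring.

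Lower under the block on the deposited scale were Hdac2 (-1.11, adjusted p = 5.88e-05), Hdac8 (-1.82, adjusted p = 2.87e-04), Hdac4 (-1.20, adjusted p = 0.00113), Sirt5 (-2.74, adjusted p = 4.62e-04), Kat2a (-3.30, adjusted p = 1.67e-05) and Brd3 (-1.25, adjusted p = 6.49e-05). The other 11 were Hdac3, Hdac10, Sirt3, Sirt6, Kat5, Kat6a, Kat7, Kat8, Ncoa2, Rcor1 and Brd2, with changes of -1.26 (Kat8) to -0.58 (Ncoa2). Taken within the long arrays (2 of S3, 1 of S1) and within the short arrays (1 of S3, 2 of S1), the S3 minus S1 difference was negative in both for 27 of the 35 genes, against 66.9% of all genes, and positive in both for 4, against 15.1%. Hdac2 differed by -1.02 within the long arrays and -1.19 within the short arrays. Kat2a differed by -3.67 within the long arrays and -2.94 within the short arrays, and Kat2b by 0.81 within the long arrays and 0.75 within the short arrays. Brd3 differed by -1.17 within the long arrays and -1.32 within the short arrays. Hdac11 differed by 1.92 within the long arrays and 0.84 within the short arrays. Calls also moved with the scale. With each array centred on its median the median change of all genes was 0.00, Kat2a and Hdac8 were lower, Kat2b and Hdac11 higher, and Hdac2 (-0.64, adjusted p = 0.227) and Brd3 (-0.79, adjusted p = 0.147) were not called. Under that centring 7.03% of all genes were lower and 4.64% higher.

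**Figure D3:**
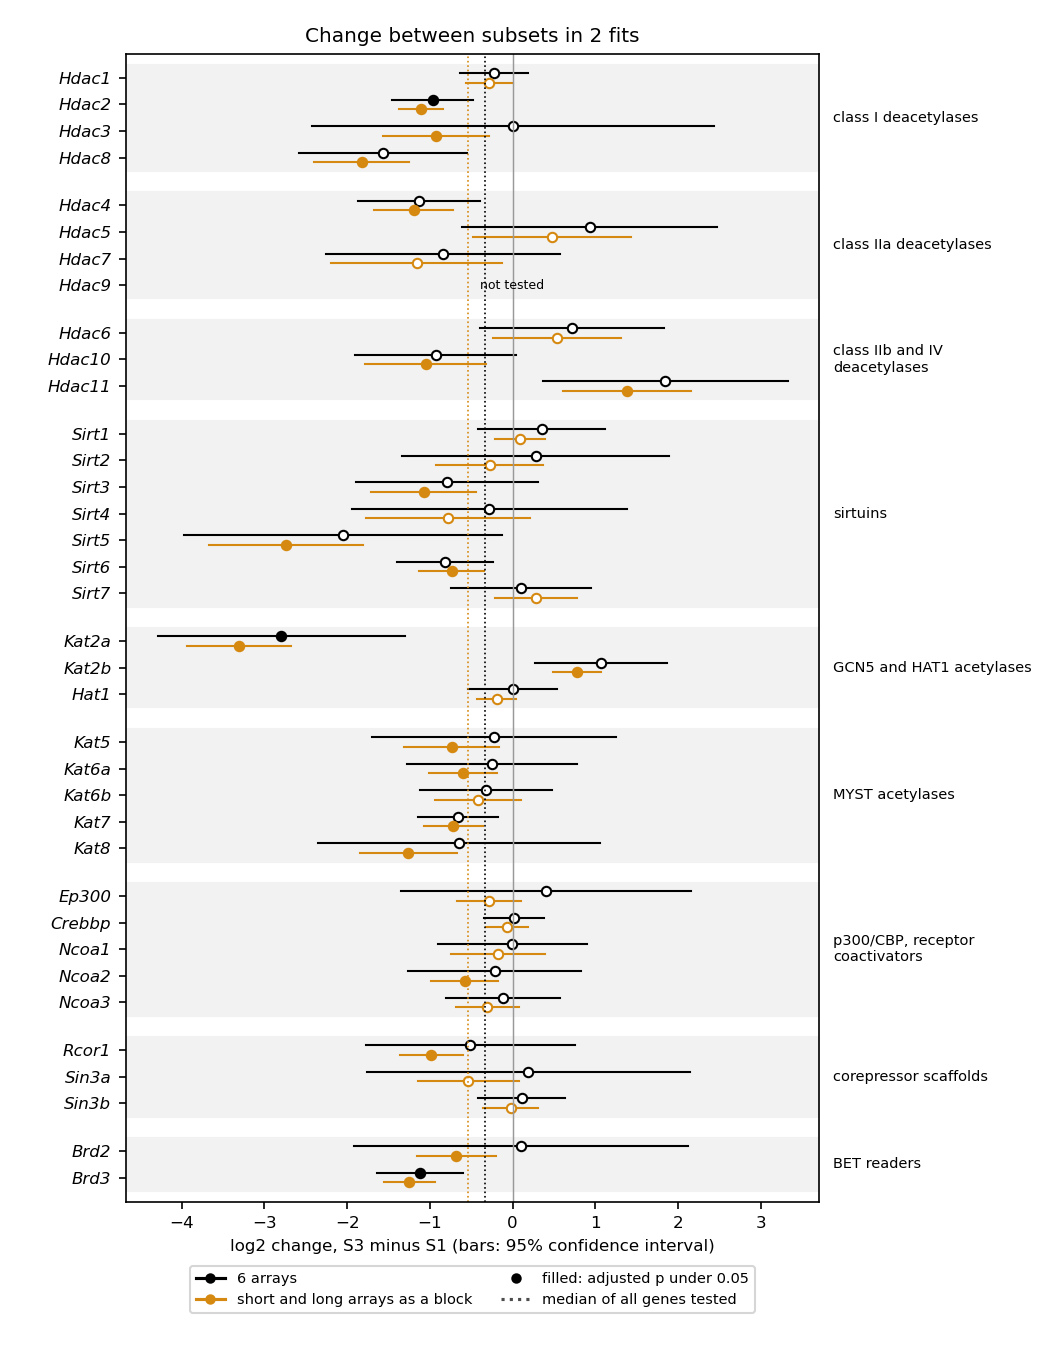
Log2 change, S3 minus S1 (x axis), with its 95% confidence interval for each gene (y axis, by role), over the 6 arrays (black) and with short and long arrays as a block (orange); filled points have an adjusted p under 0.05 and dotted lines mark the medians of all genes tested. Black points are filled for Hdac2, Kat2a and Brd3, and the orange intervals of Hdac3, Ep300, Sin3a and Brd2 are much narrower than the black ones.

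Other probe sets of the same genes mostly had the same sign. The 36 genes had 78 probe sets, and 20 genes had 34 other probe sets bright enough to test. Of these, 27 had the sign of the brightest one. Apart from the dimmer Hdac7 probe set, which is under background in S3, 1 was called over probe sets, that of Hdac2 (log2 change -0.95 ± 0.20 SE, adjusted p = 0.0330 over probe sets). For Hdac2, Kat2a and Brd3 together all 7 other tested probe sets had a negative change and 1 was called. The probe sets of a gene were read from the same samples and are not independent, and the median change of all genes was itself negative (-0.33).

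Subunits that work with these enzymes were counted from 7 lists. Of 11 tested CoREST and NCoR/SMRT partners, 3 were called lower (Tbl1xr1, Tbl1x and, as a description only, Rcor2) and none higher, with 8 not called. Of all tested genes 12.8% were called lower and 2.53% higher. Tbl1xr1, a subunit of NCoR/SMRT complexes, read 7.57, 7.53 and 7.09 in S3, against 9.43, 9.46 and 9.14 in S1. It fell without overlap (log2 change -1.94 ± 0.23 SE, adjusted p = 0.00359, limma). Its relative Tbl1x also fell (log2 change -0.96 ± 0.25 SE, adjusted p = 0.0404). Rcor2, a CoREST paralog, read -0.79, -1.44 and -0.36 in S3, against 3.48, 3.09 and 4.55 in S1. It was above background on all S1 arrays and on no S3 array, at least 5.51-fold lower. The call for Rcor2 is a description only, since it cleared the filter through its S1 level alone. It is nonetheless included in the count of 3 and in the list median. The median change of this list was -0.41, beside -0.33 for all genes.

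Of 24 tested subunits of MYST complexes, 1 rose, 4 fell and 19 were not called (median -0.49), beside 12.8% of all tested genes lower and 2.53% higher. Brpf3, a scaffold that pairs with Kat7, read 10.01, 9.79 and 10.12 in S3, against 8.10, 7.98 and 8.72 in S1. It rose without overlap (log2 change 1.70 ± 0.23 SE, adjusted p = 0.00491, limma). Msl3 (log2 change -1.27 ± 0.18 SE, adjusted p = 0.00578) and Msl2 (log2 change -0.50 ± 0.11 SE, adjusted p = 0.0225), partners of Kat8, fell. The other 2 that fell, outside the naming rule and named after their values were seen, were Kansl2 (log2 change -0.58 ± 0.14 SE, adjusted p = 0.0325), also of a Kat8 complex, and Mrgbp (log2 change -1.62 ± 0.41 SE, adjusted p = 0.0370), of NuA4. Of 11 tested NuRD subunits 1 fell, Mta1 (log2 change -1.13 ± 0.27 SE, adjusted p = 0.0324), none rose and 10 were not called (median -0.30), beside the same shares of all genes. None of 17 SAGA and ATAC subunits was called by limma, 5 of them being lower at an unadjusted p under 0.05, beside the 24.2% of all genes given above (median -0.52). The smallest p was that of Supt20 (log2 change -0.74 ± 0.22 SE, adjusted p = 0.0649). None of 10 SIN3 subunits was called, with 1 lower at an unadjusted p under 0.05, Arid4b (log2 change -0.74 ± 0.29 SE, adjusted p = 0.140), and a median of -0.17.

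Of 12 tested bromodomain proteins outside the BET genes above, listed as readers, 1 fell, Trim28, the corepressor of KRAB zinc finger proteins. The other 11 were not called (median -0.09), and whether each protein reads acetyl groups was not measured. Of all tested genes 12.8% were called lower and 2.53% higher. Trim28 read 8.78, 9.09 and 8.89 in S3, against 10.40, 10.06 and 10.16 in S1 (log2 change -1.29 ± 0.15 SE, adjusted p = 0.00357, limma). Of 9 genes that supply acetyl-CoA or NAD, 1 rose, 1 fell and 7 were not called (median -0.71), beside the same shares of all genes. Acly, which makes acetyl-CoA from citrate, fell (log2 change -0.71 ± 0.10 SE, adjusted p = 0.00578). Naprt, which feeds nicotinic acid into NAD synthesis, read 6.89, 5.80 and 7.13 in S3, against 2.30, 2.86 and 4.11 in S1. It rose, with no overlap (log2 change 3.52 ± 0.61 SE, adjusted p = 0.0104). With median centring, Trim28 (-0.96, adjusted p = 0.176) and Acly (-0.38, adjusted p = 0.594) were not called, nor were Tbl1x, Msl3, Msl2, Kansl2 and Mta1. Tbl1xr1, Mrgbp, Brpf3 and Naprt were called in the same direction. With the array class as a block on the deposited scale, 8 of 11 NuRD and 4 of 10 SIN3 subunits were lower. So were 6 of 11 CoREST and NCoR/SMRT (Rcor2 among them), 9 of 17 SAGA and ATAC and 15 of 24 MYST subunits. Lower too were 3 of 12 other bromodomain readers and 5 of 9 acetyl-CoA and NAD genes, beside the 41.2% of all genes given above. Called higher were 1 NuRD, 1 CoREST and NCoR/SMRT, 1 MYST and 2 acetyl-CoA and NAD genes, beside 5.81% of all genes.

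**Figure D4:**
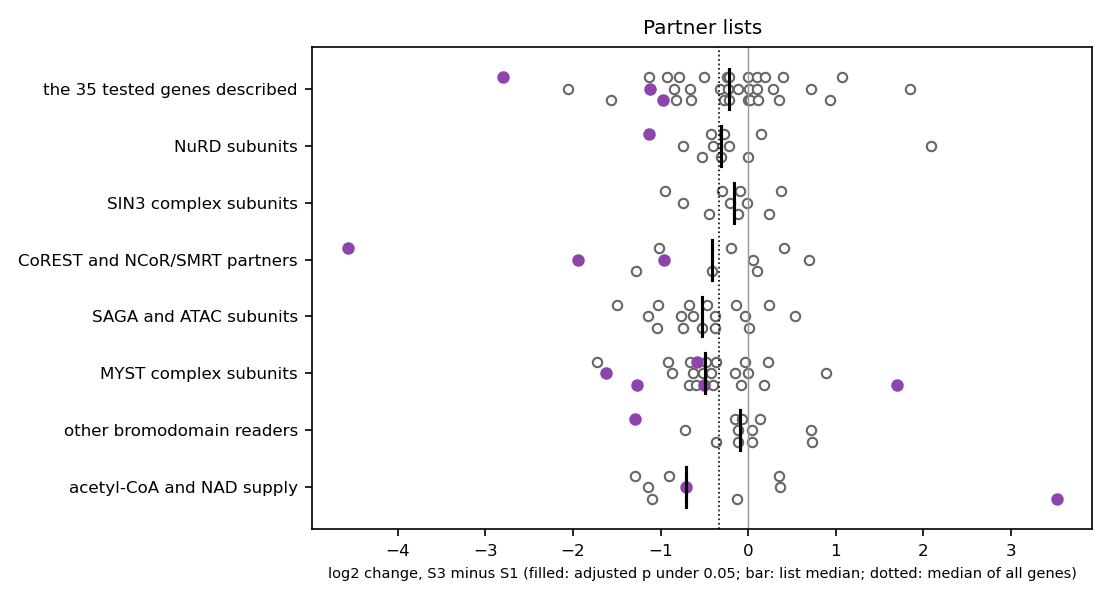
Log2 change, S3 minus S1 (x axis), of each tested gene (points) in the set described and in 7 partner lists (y axis); filled points have an adjusted p under 0.05, bars are list medians and the dotted line is the median of all genes. List medians lie between -0.71 (acetyl-CoA and NAD supply) and -0.09 (other bromodomain readers), and Naprt is the filled point at the far right. The point of Rcor2, at the far left, is a fitted value against S3 signals under background and gives no size.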

How the data were processed

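RNA of sorted S3 and S1 cells was amplified (Ovation) and hybridised to Affymetrix arrays, per the labels. Signals were made with MAS5, per the submitters' processing notes; the sources used here name no version. What the authors deposited is a log2 signal (the base is taken from the range of the values), normalized by them to 18S rRNA, Gapdh and actin, per the series' design text. They were used without a further log or constant.

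Of 45101 probe sets, 34945 had 1 gene symbol in the platform annotation. The brightest probe set stood for each gene, and genes above the 40th percentile of mean signal were tested. The difference S3 minus S1 came from limma 3.58.1 in R 4.3.3 (lmFit, eBayes with an intensity trend, two-sided) over the 11959 genes, with Benjamini-Hochberg adjustment, and once over probe sets. The samples are biological replicates per the series' design text. The alternatives were other scalings, filters, a background floor, no trend, the mean over probe sets, blocks and leaving out each array. The script was tested on simulated data.

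Every gene of the set is named; of each partner list, up to 3 called genes with the smallest p, or the 1 with the smallest where none was called. The genes and lists, and the split into short and long arrays, were chosen with earlier results of these data known. Promoter windows come from RefSeq (GRCm38.p6), with the first entry used per gene. No coordinates are given for probe sets.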

Additional observations from a re-analysis of the deposited data

How the results depend on the processing

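Over all 6 arrays on the deposited scale 0 of the 35 genes were higher and 3 lower in S3, and 302 and 1533 of all genes tested. The counts below are in that order, of the set (35 genes, 36 without the filter on dim probe sets and fewer with a stricter one) and of all genes. Median centring gave 2 and 2 of the set and 555 and 841 of all genes. Quantile normalization gave 2 and 4 of the set and 698 and 1127 of all genes. A 60th percentile filter gave 0 and 5 of the set and 314 and 1493 of all genes. The mean of a gene's probe sets gave 0 and 1 of the set and 208 and 796 of all genes. The array class as a block gave 2 and 17 of the set and 695 and 4922 of all genes. That block with median centring gave 7 and 4 of the set and 1891 and 1825 of all genes. The short arrays alone gave 0 and 9 of the set and 337 and 2601 of all genes. The long arrays alone gave 3 and 14 of the set and 617 and 4151 of all genes. No intensity trend gave 0 and 4 of the set and 230 and 1251 of all genes. No filter on dim probe sets gave 0 and 3 of the set and 273 and 1300 of all genes. Values raised to background gave 0 and 3 of the set and 326 and 1590 of all genes. Same-numbered arrays deviated from their subset means with a correlation across genes of -0.19, 0.36 and 0.43 for replicates 1, 2 and 3. Replicates 2 and 3 were each of the same array class in both subsets and replicate 1 was not. A shared sorting day and array class therefore cannot be told apart in these values. The labels give no pairing, and the numbers were not taken to pair the samples. The replicate block gave 1 and 4 of the set and 412 and 1897 of all genes. Leaving out each array gave 0 to 2 and 0 to 3 of the set and 119 to 370 and 541 to 1273 of all genes. Within 1 class, the lone array of a subset is assumed to vary like the arrays of the other. Hdac2 missed the threshold in 9 of 18 other fits (adjusted p from 5.88e-05 to 0.227), Kat2a in 5 of 18 (7.52e-06 to 0.231) and Brd3 in 4 of 18 (6.49e-05 to 0.312), with the sign kept in each. Hdac8 passed in 9, Kat2b in 8, Hdac11 in 6, Hdac4 in 5 and Sirt5 in 4 of their other fits, also with the sign kept. The gene called lower with the mean of a gene's probe sets was Hdac7, through its probe set under background in S3. Median centring turned the sign for Hdac1 (0.10), Sirt4 (0.048), Kat5 (0.11), Kat6a (0.081), Kat6b (0.0080), Ncoa1 (0.33), Ncoa2 (0.11), Ncoa3 (0.21). Quantile normalization turned the sign for Hdac1 (0.061), Sirt4 (0.019), Kat5 (0.083), Kat6a (0.094), Kat6b (0.026), Ncoa1 (0.34), Ncoa2 (0.12), Ncoa3 (0.24). The mean of a gene's probe sets turned the sign for Kat6a (0.15), Kat6b (0.17), Ncoa3 (0.57), Sin3b (-0.38). The array class as a block turned the sign for Hdac3 (-0.92), Sirt2 (-0.28), Ep300 (-0.28), Crebbp (-0.064), Hat1 (-0.19), Sin3a (-0.54), Sin3b (-0.022), Brd2 (-0.68). That block with median centring turned the sign for Hdac1 (0.32), Hdac3 (-0.32), Kat6a (0.0082), Kat6b (0.19), Ncoa1 (0.43), Ncoa2 (0.027), Ncoa3 (0.30), Brd2 (-0.071). The short arrays alone turned the sign for Hdac3 (-0.46), Hdac5 (-0.29), Sirt2 (-0.50), Ep300 (-0.24), Hat1 (-0.20), Ncoa1 (0.011), Sin3a (-0.77), Sin3b (-0.032), Brd2 (-0.75). The long arrays alone turned the sign for Hdac3 (-1.39), Sirt2 (-0.059), Sirt7 (-0.014), Ep300 (-0.32), Crebbp (-0.14), Hat1 (-0.18), Sin3a (-0.30), Sin3b (-0.012), Brd2 (-0.60). Leaving out 1 array turned it for Hdac3 (-0.66 to 1.09), Sirt2 (-0.20 to 0.91), Sirt4 (-0.85 to 0.27), Sirt7 (-0.18 to 0.33), Kat5 (-0.72 to 0.30), Kat6a (-0.56 to 0.17), Kat8 (-1.14 to 0.082), Ep300 (-0.028 to 1.10), Crebbp (-0.082 to 0.13), Hat1 (-0.15 to 0.20), Ncoa1 (-0.16 to 0.23), Ncoa2 (-0.51 to 0.18), Ncoa3 (-0.32 to 0.15), Rcor1 (-0.81 to 0.026), Sin3a (-0.30 to 0.99), Sin3b (-0.065 to 0.25), Brd2 (-0.39 to 0.91). None of these genes was called over the 6 arrays, and of the turned values only those of Hdac3 (block and long arrays alone) and Brd2 (block) were called. The cause of these shifts was not tested.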
